A study of Mus musculus with 7 samples.

Results

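The Hox genes of the mouse, 39 protein-coding genes in 4 clusters, were compared between tumors formed by NM1 KO cells and tumors formed by KO + NM1 cells. Members were chosen by symbol alone, as protein-coding genes named Hoxa, Hoxb, Hoxc or Hoxd followed by a number in the GENCODE M21 annotation, and they make up 39 of the 46603 genes counted. Nuclear myosin 1 (NM1) is an isoform of Myo1c that works in the nucleus in transcription and chromatin regulation. The KO cells were mouse embryonic fibroblasts derived from ATCC CRL-2752 in which NM1 had been deleted with CRISPR/Cas9, and the KO + NM1 cells were the same NM1 KO cells transduced with a lentivirus for NM1-HA-V5, selected with neomycin and taken from single clones, so that the endogenous NM1 was missing from both groups. The cells were injected into female Balb/c nude mice of 16 weeks, and the tumors were taken at 30 days by the labels. RNA was sequenced from 3 pieces of KO tumor and 4 pieces of KO + NM1 tumor. The labels describe a single tumor per condition that was cut into pieces, so the spread between libraries may hold no difference between mice, and p-values measure only the spread between these pieces. The site of injection is given as the right flank in one place and as the mammary pad in another, and no tumor from NM1 WT cells is among the samples.

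Hox proteins are homeodomain transcription factors that give cells along the body axis their positional identity. Within a cluster the genes lie in the order of their paralog numbers, and genes with low numbers are expressed further toward the head and earlier in the embryo than those with high numbers, with the last paralogs reserved for the tail end, the distal limb and the genital region. Fibroblasts and fat depots of the adult keep a pattern of Hox expression that reflects the site they came from. The HoxA cluster lay on chromosome 6 (chr6:52155590-52260880, minus strand) of GRCm38 with 11 members, HoxB on chromosome 11 (chr11:96194316-96368256, plus strand) with 10, HoxC on chromosome 15 (chr15:102921103-103036852, plus strand) with 9, and HoxD on chromosome 2 (chr2:74668310-74765142, plus strand) with 9. Paralogs 1 to 3 are called anterior here, 4 to 8 central and 9 to 13 posterior.

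Hoxb13, Hoxc13, Hoxc12 and Hoxc11 were found almost exclusively in the KO pieces and Hoxc8 carried the strongest decrease, so the homeoboxes of these 5 genes (ENSMUSG00000049604, ENSMUSG00000001655, ENSMUSG00000050328, ENSMUSG00000001656 and ENSMUSG00000001657) are shown. Each is the stretch of 180 bases that codes for the 60 residues of the DNA-binding homeodomain, read 5′ to 3′ on the coding strand from the GENCODE M21 transcripts, and the 18 capital bases code for the conserved WFQNRR stretch of the recognition helix. All 39 members held a single homeobox, found by this stretch, and each lay within 1 exon. The 5 homeoboxes lay in coding sequence of exon 2 of 2, at chr11:96196020-96196199 for Hoxb13, chr15:102927210-102927389 for Hoxc13, chr15:102938308-102938487 for Hoxc12, chr15:102956480-102956659 for Hoxc11 and chr15:102992571-102992750 for Hoxc8, all on the plus strand.
Hoxb13: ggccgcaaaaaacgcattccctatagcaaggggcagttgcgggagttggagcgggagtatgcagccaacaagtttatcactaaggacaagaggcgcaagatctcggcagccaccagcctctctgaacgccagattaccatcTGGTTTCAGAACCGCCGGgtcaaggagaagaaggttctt
Hoxc13: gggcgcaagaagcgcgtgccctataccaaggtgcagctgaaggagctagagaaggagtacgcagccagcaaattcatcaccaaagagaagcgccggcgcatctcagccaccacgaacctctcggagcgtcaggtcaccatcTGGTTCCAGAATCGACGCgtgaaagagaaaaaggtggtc
Hoxc12: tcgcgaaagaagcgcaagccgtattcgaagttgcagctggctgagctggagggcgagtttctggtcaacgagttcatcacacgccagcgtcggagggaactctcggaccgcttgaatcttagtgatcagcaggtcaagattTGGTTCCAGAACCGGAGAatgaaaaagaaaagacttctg
Hoxc11: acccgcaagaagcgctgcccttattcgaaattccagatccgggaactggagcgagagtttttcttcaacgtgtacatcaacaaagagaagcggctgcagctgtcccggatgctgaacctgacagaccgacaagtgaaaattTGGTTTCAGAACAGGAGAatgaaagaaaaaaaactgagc
Hoxc8: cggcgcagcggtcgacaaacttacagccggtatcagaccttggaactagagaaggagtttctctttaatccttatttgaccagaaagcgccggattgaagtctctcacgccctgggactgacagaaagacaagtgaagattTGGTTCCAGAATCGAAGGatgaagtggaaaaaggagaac
Hoxb13 and Hoxc13, which share a paralog number but lie on different chromosomes, were identical at 48 of 60 homeodomain residues and at 133 of 180 bases. Hoxc11 and Hoxc12 matched at 37 residues, whereas Hoxc8 and Hoxc13 matched at only 27.

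Library totals ranged from 24088309 to 28326568 counts, so that 3 counts, the level below which a gene is treated as not detected, corresponded to 0.0989 to 0.148 CPM (counts scaled to a common library size with TMM factors). KO + NM1 piece 1 stood apart from the other 3 pieces of its group. Its log2 CPM correlated with theirs at 0.861 to 0.867, against 0.982 to 0.990 among those 3, and its summed B and plasma cell markers reached 4261 CPM against 3.65 to 17.5 CPM. The results that rest on it are therefore given with and without it. Myo1c, whose isoforms cannot be separated in gene counts, was at 312, 289 and 306 CPM in the KO pieces and at 437, 407, 406 and 381 CPM in the KO + NM1 pieces, which does not test the deletion of NM1 itself.

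Of the 39 Hox genes, 31 had enough counts to be tested. Called genes had an adjusted p under 0.05 in edgeR's quasi-likelihood test, with Benjamini-Hochberg adjustment over all 16887 genes tested, and at least a 2-fold difference. By this rule 5 Hox genes were higher in KO (16.1% of those tested, where 17.1% of all genes tested were called higher) and 12 were lower (38.7%, against 20.3% of all genes tested). The higher genes were Hoxb7, Hoxb13, Hoxc11, Hoxc12 and Hoxc13. The lower genes were Hoxa3, Hoxa5, Hoxa7, Hoxa9, Hoxb5, Hoxb8, Hoxc5, Hoxc8, Hoxd4, Hoxd8, Hoxd9 and Hoxd10. The median log2 fold change over the 31 genes was -0.74, beside -0.00 over all genes tested. Hoxb13, Hoxc11, Hoxc12 and Hoxc13 passed the filter on low counts only through the KO pieces, where they were high, so their call follows in part from having been tested. Hoxd4 and Hoxd10 would not have passed it on the KO pieces alone, and the same limit holds for their calls.

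By adjusted p alone, 5 Hox genes were higher and 13 lower, where 25.7% and 24.5% of all genes were. The values of the KO pieces lay wholly above those of the KO + NM1 pieces for 6 Hox genes, beside 30.5% of all genes tested, and wholly below them for 11, beside 26.4%. Without KO + NM1 piece 1, 4 Hox genes were called higher, where 21.7% of all genes were, and 17 were called lower (54.8%, against 25.1% of all genes). The genes added included Hoxa10, Hoxc6, Hoxc9 and Hoxc10, all lower in KO, and the gene lost was Hoxb7, whose log2 fold change fell just short of the 2-fold limit at 0.99.

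**Figure D1:**
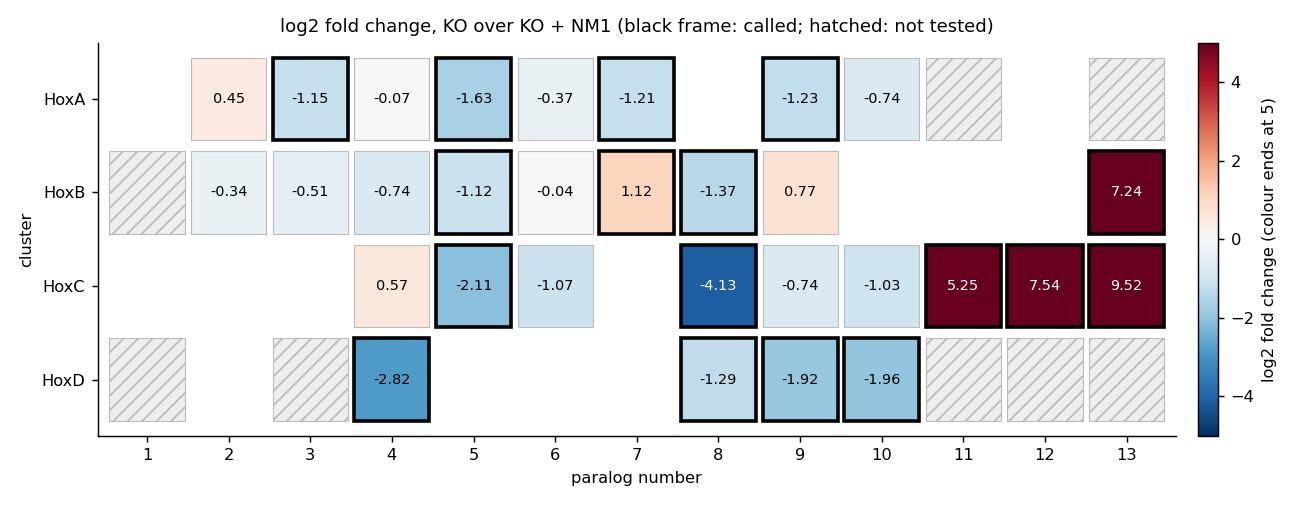
Difference between KO and KO + NM1 pieces for the Hox genes, placed by cluster (rows) and paralog number (columns), as log2 fold change with red for higher and blue for lower in KO. Black frames mark the 5 higher and 12 lower genes that were called, hatched squares the 8 genes not tested, and empty places show no value; the 4 darkest red squares all lie at paralogs 11 to 13.

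By position, the central paralogs held 8 of the 12 decreases, with 15 of 15 members tested, and 1 increase. The anterior paralogs held 1 decrease among 5 genes tested of 8, and the posterior paralogs 4 increases and 3 decreases among 11 tested of 16. All 3 Hox5 genes and all 3 Hox8 genes were lower, none of the 3 Hox6 genes was called by edgeR or passed an unadjusted p of 0.05 (1, Hoxc6, was called lower by DESeq2 and by voom), and in the Hox7 pair Hoxa7 was lower while Hoxb7 was higher. The 4 posterior increases were the genes that passed the filter only through the KO pieces, so nothing is read from their number. Hoxd4, among the central decreases, and Hoxd10, among the posterior ones, passed it only through the KO + NM1 pieces. The numbers of central and posterior decreases are therefore not read as a result either. Among clusters, HoxA had 4 lower of 9 tested, HoxB 2 higher and 2 lower of 9, HoxC 3 higher and 2 lower of 9, and HoxD 4 lower of 4, where 17.1% of all genes tested were higher and 20.3% lower. The counts of HoxB and HoxC are not read as a result about those clusters. Nor is that of HoxD, since Hoxd4 and Hoxd10 passed the filter on low counts only through the KO + NM1 pieces. Since the tumor pieces are mixtures, fewer cells of a type and less RNA per cell cannot be told apart for any of these genes.

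The strongest differences concerned the 5′ end of the HoxC cluster and its counterpart on HoxB. Hoxc13, which is required for hair and nail formation, had 336, 435 and 209 counts in KO pieces 1, 2 and 3 and 0, 0, 0 and 1 count in KO + NM1 pieces 1 to 4. The groups were far apart, and KO + NM1 was at or below the limit of detection throughout. The mean level of 11.1 ± 4.10 CPM (SD, n = 3) in KO was at least 88.1-fold higher than the mean floor of 3 counts per library in KO + NM1 (adjusted p = 0.00035). Hoxc12, its neighbour in the cluster, had 71, 79 and 103 counts in KO and 0, 0, 1 and 0 in KO + NM1. This gene, too, was detected in every KO piece and in no KO + NM1 piece above the floor, at 2.83 ± 0.523 CPM in KO and at least 22.6-fold higher (adjusted p = 0.0006).

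Hoxc11, which takes part in hindlimb and lumbosacral patterning, had 206, 172 and 249 counts in KO and 2, 1, 5 and 9 in KO + NM1. It was low but not absent in the KO + NM1 pieces, with a mean of 0.182 ± 0.154 CPM (n = 4) against 7.01 ± 1.13 CPM in KO, and a log2 fold change of 5.25 ± 0.64 (SE, adjusted p = 0.0012). Hoxb13, a regulator of the tail bud and the prostate, had 431, 293 and 325 counts in KO and 0, 0, 1 and 6 in KO + NM1. The single KO + NM1 piece with more than 3 counts was piece 4, and the mean levels were 11.7 ± 2.27 CPM in KO and 0.0739 ± 0.117 CPM in KO + NM1, for a log2 fold change of 7.24 ± 0.998 with a 95% interval of 4.89 to 9.59 (adjusted p = 0.0015).

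Their paralogs on the other clusters were at or near the floor in both groups. Hoxa11 had at most 4 counts and Hoxa13 at most 5 in any library, and Hoxd11, Hoxd12 and Hoxd13 had 0 counts in all 7. At the homeodomain Hoxa13 and Hoxc13 are identical at 55 of 60 residues and Hoxc11 and Hoxd11 at 56, but the homeobox bases differed more, with 139 and 143 of 180 identical. Among paralogs 11 to 13, no other gene than Hoxb13, Hoxc11, Hoxc12 and Hoxc13 exceeded 5 counts in any of the 7 libraries.

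Hoxb7, the remaining increase, was at 22.1, 14.9 and 18.7 CPM in KO and at 8.45, 8.53, 7.84 and 9.32 CPM in KO + NM1. Every KO piece was above every KO + NM1 piece, and the log2 fold change was 1.12 ± 0.20 (adjusted p = 0.0035). Hoxb7 ranked first of the 39 Hox genes by CPM per kb of exon in KO and twelfth in KO + NM1. On that length-corrected scale Hoxc4, Hoxc10, Hoxc6 and Hoxc9 followed in KO, whereas Hoxc8, Hoxc10, Hoxc6 and Hoxc9 led in KO + NM1.

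**Figure D2:**
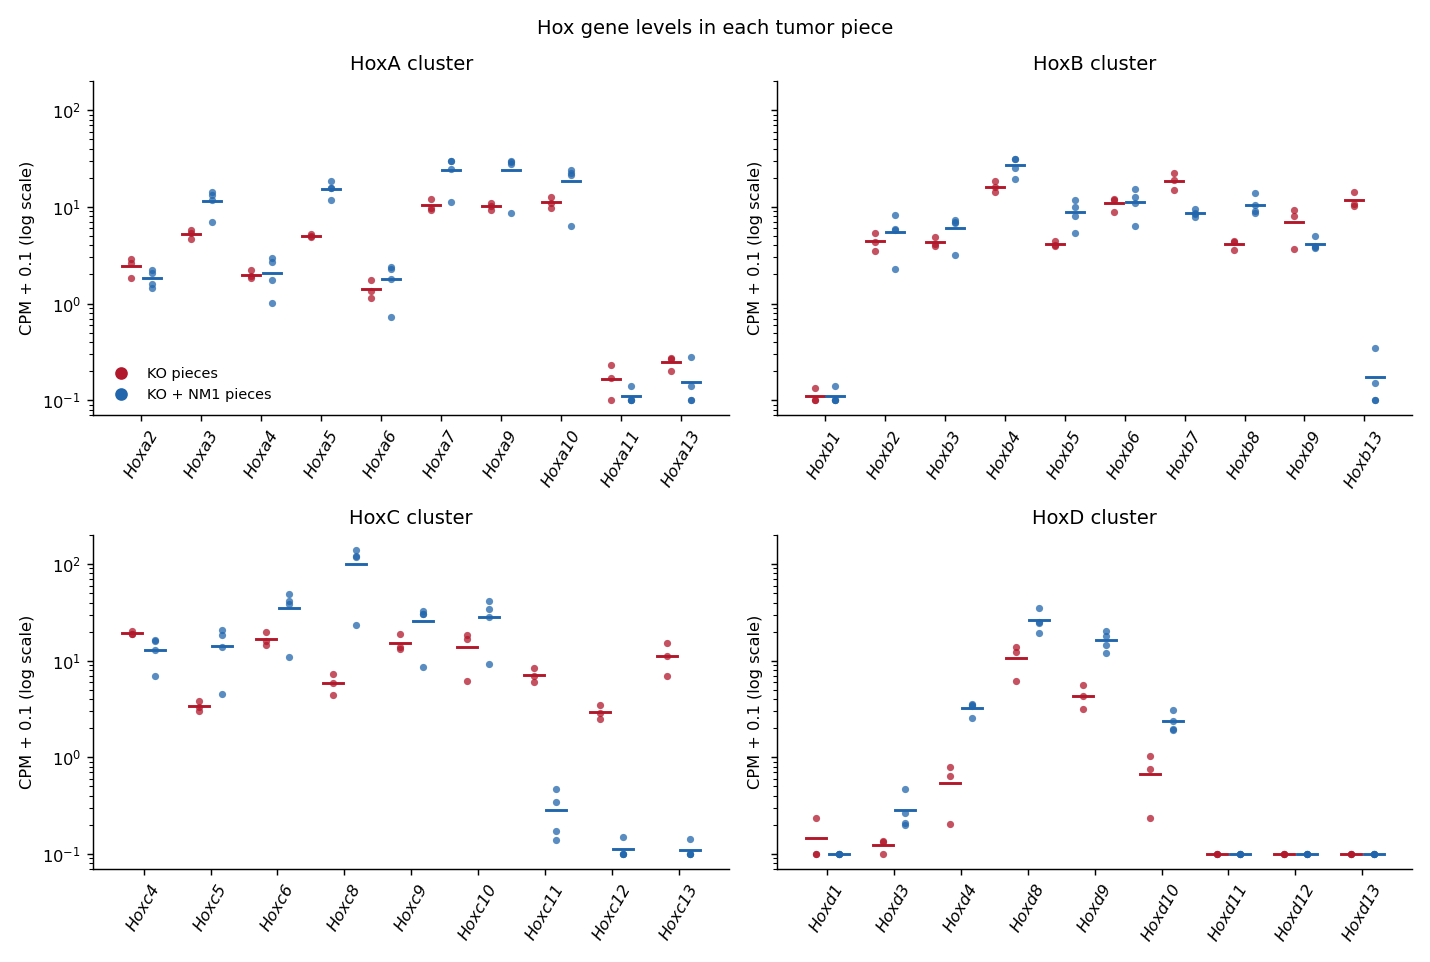
Level of the Hox genes in every tumor piece, as CPM + 0.1 on a log axis, with 1 point per piece (3 KO in red, 4 KO + NM1 in blue) and a bar at the group mean, ordered by paralog number in 1 panel per cluster. Hoxb13, Hoxc11, Hoxc12 and Hoxc13 stand at 2.83 to 11.7 CPM on average in KO and near the bottom of the axis in KO + NM1, whereas Hoxc8 shows the reverse with 5.77 against 101 CPM.

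Hoxc8, which specifies thoracic vertebrae and motor neurons of the forelimb level, was the Hox gene with the strongest decrease. It was at 4.33, 5.83 and 7.15 CPM in the KO pieces and at 23.3, 140.0, 119.7 and 120.4 CPM in the KO + NM1 pieces. The groups did not overlap, and KO + NM1 piece 1 was well below the other 3 pieces of its group. The log2 fold change was -4.13 ± 0.55 (SE, adjusted p = 0.0024) with all pieces and -4.58 without that piece, and the call held in all 17 alternative settings. Hoxc8 ranked first among Hox genes by CPM per kb in KO + NM1 and seventeenth in KO.

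The other Hox8 genes fell as well. Hoxb8, known for its role in myeloid cells, was at 3.46, 4.20 and 4.35 CPM in KO and 8.52, 13.8, 8.93 and 10.3 CPM in KO + NM1. Hoxd8, a gene of the trunk, was at 5.99, 12.3 and 13.7 CPM in KO and 19.2, 35.2, 24.7 and 24.9 CPM in KO + NM1. Neither gene overlapped between groups, with log2 fold changes of -1.37 ± 0.25 and -1.29 ± 0.34. The Hoxb8 and Hoxc8 homeodomains differ at 1 residue, with 59 of 60 identical, and Hoxc8 and Hoxd8 match at 56.

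The Hox5 genes formed the second complete group. Hoxa5, which is needed for the lung, trachea and upper thorax, was at 4.86, 5.10 and 4.81 CPM in KO and 11.6, 15.5, 18.5 and 15.5 CPM in KO + NM1. Hoxb5, a gene of the lung and the enteric nervous system, was at 3.83, 3.92 and 4.32 CPM and at 5.28, 11.7, 8.04 and 9.89 CPM. Hoxc5, in the neck and upper thorax, was at 2.93, 3.23 and 3.73 CPM and at 4.37, 20.4, 18.4 and 13.6 CPM. In all 3 the KO pieces were tightly grouped and lay below every KO + NM1 piece, of which piece 1 was the lowest. The log2 fold changes were -1.63 ± 0.21 for Hoxa5 (adjusted p = 0.0015), -1.12 ± 0.31 for Hoxb5 and -2.11 ± 0.49 for Hoxc5. Hoxa5 kept its call in all 17 alternative settings, Hoxc5 in 15 and Hoxb5 in 9. Of the Hoxc5 exon bases 5.37% are shared with Hoxc10 on the same strand.

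Of the remaining HoxA genes, Hoxa3, Hoxa7 and Hoxa9 were lower. Hoxa3, needed for the thymus and parathyroid, was at 5.72, 5.24 and 4.58 CPM in KO and 6.92, 14.1, 13.3 and 11.8 CPM in KO + NM1. Its groups did not overlap, with a log2 fold change of -1.15 ± 0.29 that was called in 13 of 17 alternative settings. Of its exon bases 8.01% are shared with another gene on the same strand, and 27.1% with genes on either strand. Hoxa7, a trunk gene, was at 9.25, 12.0 and 9.76 CPM and at 11.3, 29.9, 29.9 and 24.4 CPM. Hoxa9, a regulator of hematopoietic stem cells and the trunk, was at 9.22, 10.9 and 10.2 CPM and at 8.49, 27.9, 28.9 and 29.8 CPM. For both, KO + NM1 piece 1 lay within or below the range of the KO pieces while the other 3 were clearly above it. Their log2 fold changes of -1.21 ± 0.35 (adjusted p = 0.027) and -1.23 ± 0.42 (adjusted p = 0.048) were -1.57 and -1.64 without that piece, and the calls held in 9 and 7 of 17 alternative settings. Hoxaas3, on the opposite strand, overlaps 20.4% of Hoxa7 exon bases, and the strand setting of the counting is not given.

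All 4 HoxD genes that could be tested were lower in KO and none overlapped between groups. Hoxd4 and Hoxd10 passed the filter on low counts only through the KO + NM1 pieces, where they were high, so nothing is read from this number. Hoxd9, which takes part in limb and lumbar patterning, was at 3.06, 5.45 and 4.25 CPM in KO and 20.4, 17.8, 11.8 and 14.6 CPM in KO + NM1. Its log2 fold change was -1.92 ± 0.29 (adjusted p = 0.0024), and KO + NM1 piece 1 was the highest of its group. Hoxd10, a neighbour with a role in hindlimb motor neurons, had 4, 27 and 20 counts in KO and 82, 45, 38 and 56 in KO + NM1. Here, too, piece 1 was the highest, which held for these 2 of the 31 genes tested, with a log2 fold change of -1.96 ± 0.59 that was called in 9 of 16 alternative settings. Hoxd4, a gene of the hindbrain and the cervical vertebrae, had 16, 3 and 21 counts in KO and 67, 86, 69 and 81 in KO + NM1, a log2 fold change of -2.82 ± 0.56. Hoxd3 and Hoxd4 share 52.3% or more of their exon bases with each other or with Gm28230, so reads in the common part could have been assigned to neither, and the level of Hoxd4 is uncertain for that reason.

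Of the genes tested, 14 were not called. Hoxc6, a gene of the thorax and the mammary gland, was at 15.9, 14.3 and 19.6 CPM in KO and at 10.9, 48.9, 41.0 and 38.3 CPM in KO + NM1. Hoxc9, which defines thoracic motor neurons, was at 13.9, 13.2 and 18.6 CPM and at 8.56, 32.4, 30.5 and 30.6 CPM. Hoxc10, a lumbar gene, was at 6.12, 18.3 and 16.8 CPM and at 9.18, 34.0, 40.9 and 28.2 CPM. In each of these genes KO + NM1 piece 1 fell within or below the KO range and the other 3 pieces were above all KO pieces. The same held for Hoxa10, a gene of the lumbar region and the uterus, at 9.65, 11.002 and 12.5 CPM and at 6.26, 24.05, 21.2 and 22.5 CPM. Without piece 1 all 4 were called lower, with log2 fold changes of -1.49 for Hoxc6, -1.16 for Hoxc9, -1.45 for Hoxc10 and -1.16 for Hoxa10.

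Among HoxB genes, Hoxb4, a regulator of blood stem cells, was at 18.4, 14.1 and 15.8 CPM in KO and 19.3, 31.6, 25.0 and 31.4 CPM in KO + NM1. The KO pieces lay below all KO + NM1 pieces, but the log2 fold change of -0.74 ± 0.22 (adjusted p = 0.031) was under 2-fold. Hoxb9, a thoracic gene, was at 3.53, 7.91 and 9.23 CPM and at 3.75, 3.82, 3.70 and 4.88 CPM. Hoxb6, of the thorax, was at 11.9, 8.85 and 11.8 CPM and at 6.30, 15.1, 10.8 and 12.5 CPM. The groups overlapped in both, with log2 fold changes of 0.77 (95% interval -0.08 to 1.62) and -0.04 (-0.79 to 0.71), and the sign for Hoxb6 turned when libraries were scaled by size alone. Hoxb2, of the hindbrain, was at 5.33, 3.37 and 4.22 CPM and at 2.19, 5.81, 5.67 and 8.21 CPM, and Hoxb3 next to it was at 4.83, 3.85 and 3.99 CPM and at 3.06, 6.78, 6.91 and 7.27 CPM. Hoxb3os, on the opposite strand, overlaps 27.3% of Hoxb2 and 52.9% of Hoxb3 exon bases, and without strand in the counting the genes could not be told apart from it. Hoxc4, at the 3′ end of HoxC, was at 18.97, 20.2 and 18.6 CPM and at 6.81, 16.1, 12.9 and 16.0 CPM, so that every KO piece was above every KO + NM1 piece, with a log2 fold change of 0.57 ± 0.31 (adjusted p = 0.16).

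The other members were low. Hoxa2, Hoxa4 and Hoxa6 were tested but stayed below 3 CPM in every library, and their groups overlapped. Hoxd1 had 4 counts in KO piece 1 and 0 elsewhere, and Hoxb1 had at most 1 count. Hoxd3 had 0, 1 and 1 counts in KO and 3, 4, 2 and 9 in KO + NM1. Hoxb1, Hoxd11, Hoxd12 and Hoxd13 were at 3 counts or fewer in every library.

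**Figure D3:**
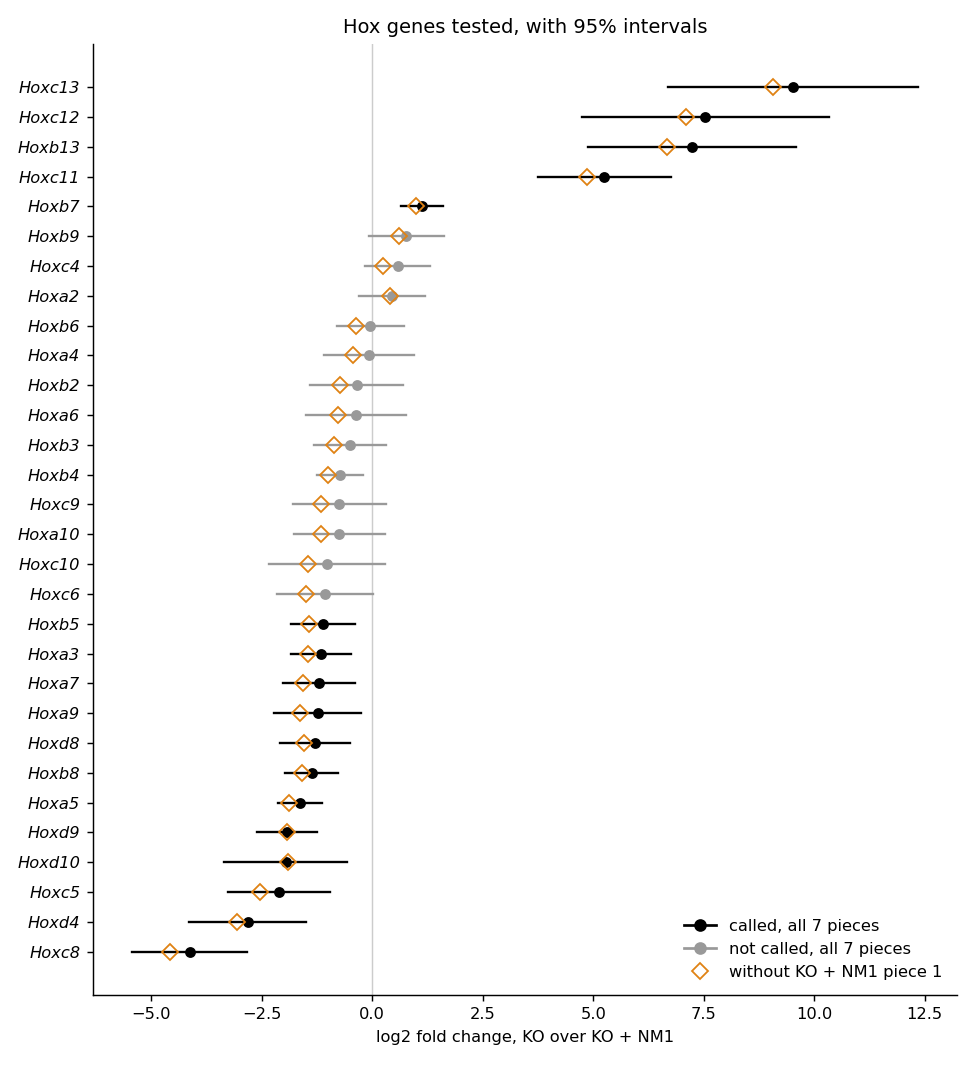
log2 fold change of the Hox genes tested, KO over KO + NM1, with 95% intervals; black marks called genes, grey those not called, and open diamonds the value without KO + NM1 piece 1. Most diamonds of genes lower in KO lie left of the value from all pieces, as for Hoxc8 at -4.58 against -4.13, and no diamond changes the direction of a called gene.

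The libraries within a group were not alike in their Hox genes. KO + NM1 piece 1 was the lowest of its group for 22 of the 31 genes and for 10 of the 12 that were lower in KO, and its summed fibroblast markers were the lowest of all pieces at 2927 CPM against 7913 to 13475 CPM in the other 3. Among the KO pieces, piece 1 was the lowest for 14 genes and for 9 of those 12, and piece 2 for 13 genes and for 1 of those 12. The 14 genes lowest in piece 1 include Hoxb9, Hoxc10, Hoxd8 and Hoxd10, but also genes that differed little, such as Hoxb5 at 3.83 CPM against 3.92 and 4.32 CPM. In KO piece 1 the summed skeletal muscle markers were 2355 CPM against 15276 and 19261 CPM in the other KO pieces. Hoxb13 and Hoxb7 were highest in that same piece, at 14.3 and 22.1 CPM. The part of muscle or fibroblast content in these differences was not tested.

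The make-up of the summed Hox signal was compared on the scale of CPM per kb of exon, which corrects for gene length. The sum was 102 ± 6.20 in KO and 171 ± 58.0 in KO + NM1, and it ranged from 85.7 in KO + NM1 piece 1 to 216 in piece 2. HoxB held 36.5 ± 5.22% of it in KO and 20.7 ± 5.19% in KO + NM1, HoxC 40.9 ± 3.49% and 46.9 ± 11.7%, HoxA 16.5 ± 0.525% and 19.5 ± 1.15%, and HoxD 6.21 ± 1.86% and 12.9 ± 6.30% (SD, n = 3 and 4). The groups did not overlap for HoxA, HoxB and HoxD, and they overlapped for HoxC. The overlap rested on KO + NM1 piece 1, at 29.4%, while the other 3 pieces of its group held 51.0 to 54.3% in HoxC and the KO pieces 36.9 to 43.6%. These are shares of sums that differed between the groups. The level of HoxB itself overlapped, at 37.0 ± 4.40 CPM per kb in KO and 33.3 ± 7.13 in KO + NM1.

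The posterior paralogs made up 39.0 ± 4.28% of the sum in KO and 27.0 ± 1.57% in KO + NM1, and the central paralogs 56.3 ± 3.44% and 69.0 ± 1.83%. The summed level of the posterior paralogs was not higher in KO, at 39.8 ± 5.71 CPM per kb against 45.7 ± 14.2 in KO + NM1, with overlapping groups. Hoxb13, Hoxc11, Hoxc12 and Hoxc13 alone held 15.8 ± 1.81% of the sum of all Hox genes in KO and 0.0789 ± 0.0682% in KO + NM1. Within HoxC, Hoxc11, Hoxc12 and Hoxc13 held 25.9 ± 3.34% of the cluster in KO and 0.132 ± 0.081% in KO + NM1, while Hoxc8 held 4.84 ± 0.630% and 40.2 ± 5.20%. Even KO + NM1 piece 1 had 32.7% of its HoxC signal in Hoxc8, against at most 5.53% in a KO piece. Hoxb13, Hoxc11, Hoxc12, Hoxc13 and Hoxc8 were picked for their differences in these same data, so their shares restate those differences.

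**Figure D4:**
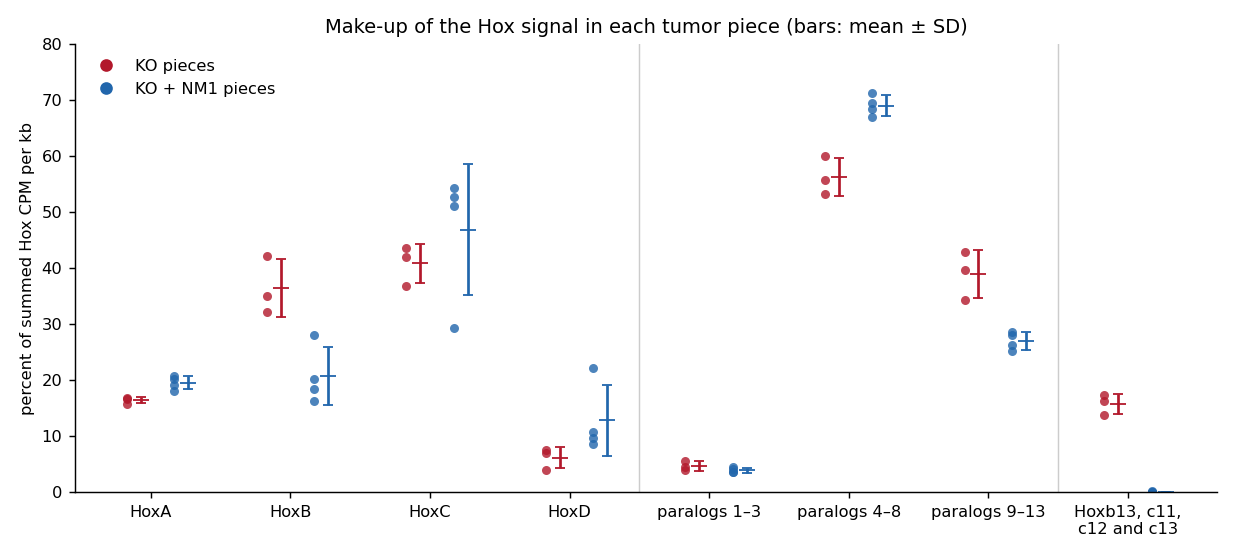
Percent of the summed Hox CPM per kb held by each cluster, by paralogs 1 to 3, 4 to 8 and 9 to 13, and by Hoxb13, Hoxc11, Hoxc12 and Hoxc13 together, with 1 point per piece and bars for mean ± SD (3 KO pieces in red, 4 KO + NM1 pieces in blue). The last set, picked for its difference in these same data, stands at 13.8 to 17.3% in KO and at 0.00930 to 0.164% in KO + NM1.

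The 4 clusters hold 46 further genes, mostly noncoding, of which 14 could be tested and 24 were at the floor in every library. Gm27605, an RNA gene on the opposite strand a few kilobases beyond Hoxb13, had 51, 49 and 33 counts in KO and 0 in all 4 KO + NM1 pieces, at least 11.9-fold higher. Gm53, a long noncoding RNA, had 172, 155 and 126 counts in KO and 66, 9, 7 and 20 in KO + NM1, with a log2 fold change of 2.35 ± 0.70. Both lie in the stretch between Hoxb13 and Hoxb9 and differed in the direction of Hoxb13, whereas Hoxb9 itself was not called, and Gm53 kept its call in 9 of 16 alternative settings. Hoxd3os1 had a log2 fold change of -2.53 ± 0.45, the direction of its HoxD neighbours, and Hotairm1, in HoxA, one of -1.43 ± 0.48, with overlapping groups and a call that held in 7 of 17 alternative settings. Gm27605 and Gm53 passed the filter on low counts only through the KO pieces, and Hoxd3os1 only through the KO + NM1 pieces. Nothing is therefore read from the direction they share with their neighbours. Hotair, which lies antisense in HoxC between Hoxc12 and Hoxc11, was not tested, with 2, 6 and 21 counts in KO and 0, 1, 1 and 1 in KO + NM1.

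The clusters also encode the miR-196 and miR-10 microRNAs, which are known to bind Hox transcripts. The 2 mature miR-196 sequences share the seed, bases 2 to 8, given in capitals, with the RefSeq table of GRCm38.p6 as the source.
mmu-miR-196a-5p: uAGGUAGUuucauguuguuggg
mmu-miR-196b-5p: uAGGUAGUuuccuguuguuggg
A match to this seed, ACTACCT on the transcript strand, was present in the annotated 3′ UTR of 8 of 39 Hox genes (20.5%), beside 5.52% of 20397 protein-coding genes, whose 3′ UTRs had a median length of 806 bases against 960 for Hox genes. Hoxc8 held 2 matches, shown with the seed match in capitals and 22 bases in all, at chr15:102992976-102992997 and chr15:102993733-102993754.
Hoxc8 site 1: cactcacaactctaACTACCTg
Hoxc8 site 2: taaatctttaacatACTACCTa
Hoxa7 held 4 and Hoxa4, Hoxa5, Hoxa9, Hoxb1, Hoxb6 and Hoxb7 held 1 each. Of these, Hoxc8, Hoxa5, Hoxa7 and Hoxa9 were lower in KO, Hoxb7 was higher, Hoxa4 and Hoxb6 were not called and Hoxb1 was not detected. Among all 31 Hox genes tested, 12 (38.7%) were lower. Only exact matches to the seed were counted, and a part of miR-196 in the Hox levels was not tested. The Mir196a-1 gene next to Gm53 had 18, 11 and 12 counts in KO and 5, 1, 0 and 5 in KO + NM1, with a log2 fold change of 2.01 ± 0.80 (adjusted p = 0.065), while Mir196b had 0 counts in every library. Counts over a hairpin in this kind of library come from longer transcripts and do not measure the mature microRNA. The miR-10 seed match was found in 4 of 39 Hox 3′ UTRs (10.3%), beside 11.2% of all.

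Partners and regulators of Hox genes were taken from fixed lists, whose counts stand beside the 17.1% of all genes tested that were called higher and the 20.3% called lower. Of 11 TALE homeodomain genes, the cofactors that bind DNA together with Hox proteins, 2 were higher and 2 lower, shares near those of all genes, with a median log2 fold change of 0.38. Pbx3 rose from 6.86 CPM in KO + NM1 to 23.9 CPM in KO (log2 fold change 1.80 ± 0.31) and Pbx4 was at 0.628 and 2.97 CPM (2.23 ± 0.60). The call of Pbx4 held in 10 of 16 alternative settings. Pbx4 would not have passed the filter on low counts on the KO + NM1 pieces alone, so nothing is read from the count of higher genes. Meis1 was at 14.2 CPM in KO + NM1 and 6.84 CPM in KO (-1.05 ± 0.33), with overlapping groups and a call that held in 8 of 17 alternative settings. The Cdx genes, which activate Hox clusters in the embryo, and the homeobox genes Evx1, Evx2 and Mnx1 were at the floor in every library, so none of these 6 could be tested.

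Other regulators of position differed in level between the groups. Of 22 limb and trunk factors 17 were tested, 1 was higher (beside 17.1% of all genes tested) and 8 lower (beside 20.3%), with a median log2 fold change of -1.03. The higher gene, Alx1, passed the filter on low counts only through the KO pieces. Tbx5, among the lower genes, passed it only through the KO + NM1 pieces, so nothing is read from these counts. Alx1, a craniofacial mesenchyme factor, was at 17.1 to 17.3 CPM in KO and at most 0.287 CPM in KO + NM1 (7.61 ± 1.00). Tbx5, the forelimb factor, was at 0.0886 CPM in KO and 3.32 CPM in KO + NM1 (-5.14 ± 0.90), and Tbx3, of the limb and mammary gland, at 2.03 and 59.0 CPM (-4.86 ± 0.44). Of 10 factors of the head and the Hox-negative neural crest, 5 were tested. Otx1, Dlx1 and Dlx2 were called higher, but they had at most 1 count in any KO + NM1 piece and passed the filter only through the KO pieces, so nothing is read from their number. Otx1, a forebrain factor, was at 6.41 CPM in KO and 0.0103 CPM in KO + NM1, and Dlx2, of the first pharyngeal arch, at 1.04 CPM and 0, the latter with 0 counts in all 4 KO + NM1 pieces. Factors of the head end and Hox genes of the tail end were detected in the same 3 KO pieces.

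Retinoic acid is the classic inducer of the 3′ Hox genes. In its pathway 13 of 15 genes were tested, 1 was higher (beside 17.1% of all genes tested) and 7 lower (beside 20.3%), with a median log2 fold change of -1.41. Aldh1a3, which makes retinoic acid, was at 2.74 CPM in KO and 78.1 CPM in KO + NM1 (-4.83 ± 0.65), and Rxrg, a retinoid receptor, at 3.40 and 24.9 CPM (-2.87 ± 0.67). Crabp1, a binding protein, was the exception, at 64.5 CPM in KO and 7.59 CPM in KO + NM1 (3.09 ± 0.75).

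Trithorax and Polycomb proteins keep Hox genes on or off. All 19 genes of this list were tested, 4 were higher (beside 17.1% of all genes tested) and 2 lower (beside 20.3%), with a median log2 fold change of 0.10, and neither count is read as a result about the list. Ezh2, the methyltransferase of Polycomb complex PRC2, was at 74.2 CPM in KO and 15.6 CPM in KO + NM1 (2.25 ± 0.27), and its partner Suz12 at 189 and 54.6 CPM (1.79 ± 0.25). Cbx7, a chromobox subunit of PRC1, was at 18.7 and 72.0 CPM (-1.95 ± 0.21), and Kdm6b, which removes the PRC2 mark, at 49.3 and 109.6 CPM (-1.15 ± 0.11). Mki67, the proliferation marker, was at 394 CPM in KO and 8.997 CPM in KO + NM1, and its part in the level of the PRC2 genes was not tested.

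Genes known as targets or effectors of Hox proteins numbered 15, with 12 tested, 3 higher (beside 17.1% of all genes tested) and 5 lower (beside 20.3%), and a median log2 fold change of -1.75. Fgf10, among the lower genes, passed the filter on low counts only through the KO + NM1 pieces, so nothing is read from that count. Gli3, a limb patterning factor that interacts with Hox proteins, was at 39.9 CPM in KO and 6.20 CPM in KO + NM1 (2.69 ± 0.43), and Ncam1, an adhesion molecule, at 10.6 and 3.31 CPM (1.68 ± 0.28). Fgf10, the limb bud growth factor, was at 0.318 and 39.5 CPM (-6.94 ± 0.74), and Efnb1, an ephrin, at 9.71 and 92.1 CPM (-3.25 ± 0.38).

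Marker genes of other cell types differed between the groups as well, beside every result above, where 17.1% of all genes tested were higher and 20.3% lower. Markers may come from host cells or from the injected cells, which gene counts do not separate. All 10 of 10 white adipocyte markers were lower in KO, with sums of 122 to 309 CPM in KO and 4916 to 36993 CPM in KO + NM1. All 10 of 10 skeletal muscle markers were higher, with sums of 2355 to 19261 CPM and 7.79 to 25.8 CPM. Ckm, Myh4 and Pvalb were at the floor in KO + NM1 and passed the filter on low counts only through the KO pieces. Nothing is therefore read from the number of muscle markers called. Macrophage markers were higher for 7 of 7, at 2252 to 2573 CPM against 386 to 554 CPM, and endothelial markers lower for 6 of 6, at 186 to 208 CPM against 971 to 1289 CPM. Mammary epithelial markers were lower for 7 of 9 tested, with Wap at the floor in both groups, and keratinocyte markers were called for 0 of 4 tested in edgeR (0 at an unadjusted p under 0.05, 1 in DESeq2 and 1 in voom), with sums of 2.97 to 1084 CPM in KO and 57.1 to 423 CPM in KO + NM1. Of 10 fibroblast markers, which the injected cells should express, 0 were higher in edgeR (1 at an unadjusted p under 0.05, 1 in DESeq2 and 1 in voom) and 5 lower, with sums of 7392 to 13309 CPM and 2927 to 13475 CPM. Brown adipocyte markers were lower for 4 of 6, Schwann cell markers for 5 of 6, and B and plasma cell markers were called for 0 of 7 in edgeR (0 at an unadjusted p under 0.05, 0 in DESeq2 and 3 in voom). Host tissue carries Hox genes of its own position, and the part of muscle, fat, mammary and other host cells in the Hox differences was not tested.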

How the data were processed

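RNA-seq counts per gene were deposited for 3 KO and 4 KO + NM1 tumor pieces. According to the submitters' processing notes and the methods, the authors used Trimmomatic 0.36 for trimming, HISAT2 2.0.4 for alignment to GRCm38, SAMtools 0.1.19 for sorting and HTSeq for counting. The deposited counts are whole and not normalized, and the annotation release and strand setting are not given in the sources used here. Of 46603 genes, 46005 had a GENCODE M21 symbol. Genes with enough counts by filterByExpr (minimum 10) were fitted with edgeR 4.0.16 in R 4.3.3, with TMM scaling and without covariates, and p-values were adjusted over all 16887 genes tested. CPM values use the same scaling. Alternatives used DESeq2 1.42.0, voom and glmTreat (limma 3.58.1, edgeR), other scalings and filters, and each piece left out. The fitting script was tested on simulated data. The Hox genes and the gene lists were chosen with earlier results of these data known. Values in every library were printed for tested Hox genes that were called or had a group mean of at least 5 CPM, and of each list the 2 largest rises and 2 largest falls among called genes with a group mean of at least 1 CPM were named. Some genes that these rules or lists cover are counted but not reported here by name or in the plots. Replicate numbers were checked as pairs: deviations of same-numbered pieces correlated at 0.073, 0.098 and -0.019, so they were not treated as pairs. Pieces of a group differed by far more than sampling noise, so none was a repeat of another. With 3 against 4 pieces the smallest two-sided exact permutation p is 0.0286. Floors cover counting error only.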

Additional observations from a re-analysis of the deposited data

Results flagged for a closer look

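Among the 4 KO + NM1 pieces, 63 values were tested for a single piece far from the others, by the gap to its nearest neighbour as a share of the whole range, and 13 passed the critical value at which chance flags about 1 in 20, which would be 3.1. KO + NM1 piece 1 was the one set apart in 9 of these. It was the lowest for Hoxa9 (0.909), Hoxa10 (0.841), Hoxb3 (0.885), Hoxc9 (0.919) and Hoxd4 (0.84), at 8.49, 6.26, 3.06, 8.56 and 2.44 CPM, and for the HoxC share of the Hox signal (0.868, at 29.4%). It was the highest for the HoxD share (0.842, at 22.2%), for Pbx3 (0.843, at 10.9 CPM) and for Suz12 (0.847, at 81.7 CPM). Hoxb9 was set apart by a high piece 4 (0.9, at 4.88 CPM against 3.70 to 3.82 CPM). For Hoxc12 in piece 3, Hoxc13 in piece 4 and Otx1 in piece 4, the ratio of 1.0 rests on 1 count beside 0 in the other pieces. These ratios share a piece and are not independent of each other.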

How the results depend on the processing

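Over 17 alternatives, 521 refitted log2 fold changes of Hox genes kept their direction and side of the threshold in 460 cases, while 45 lost the call, 9 gained it and 7 changed sign, and 14 of 31 genes never changed. The 5 Hox genes higher in KO were 1 when 10 counts were required in every library, which leaves Hoxb13, Hoxc11, Hoxc12 and Hoxc13 untested, and 4 to 5 when a piece was left out. The 12 lower genes were 7 with library size alone, 4 with glmTreat against 2-fold and 7 to 17 when a piece was left out, the lowest without KO replicate 3 and the highest without KO + NM1 replicate 1. With the replicate number as a block, 6 Hox genes were lower, although the numbers do not pair the pieces. Over the listed partners, regulators and targets, 14 genes were higher and 24 lower, against 9 higher with 10 counts in every library and 12 lower with glmTreat. The sign turned only for uncalled genes, to 0.16 for Hoxa4 with library size alone and to 0.14 and 0.06 without KO + NM1 replicates 2 and 3 (-0.44 to 0.14 over the pieces left out), to 0.0031 for Hoxb2 with the block, and to 0.16, 0.093 and 0.12 for Hoxb6 with library size alone, with the block and without KO + NM1 replicate 2 (-0.36 to 0.12 over the pieces left out). The cause was not tested. Other scalings moved the median log2 fold change of all genes from -0.00 to 0.17 (library size alone), -0.16 (upper quartile) and -0.10 (RLE size factors). It was -0.15 in DESeq2, run on 28894 genes, where edgeR gave -0.11 on that many genes, and 0.12 in voom with quality weights. Low counts limited Hoxa11, Hoxa13, Hoxd1 and Hoxd3, which were not testable at this depth.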

Other observations

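Of the 46 other genes in the clusters, Gm27898, an RNA gene beside Gm27605 beyond Hoxb13, was too low to be tested, with 6, 14 and 22 counts in KO and 0 in all 4 KO + NM1 pieces. Hoxaas2, in the HoxA cluster, was at 0.9985, 0.937 and 1.52 CPM in KO and at 0.838, 0.284, 0.395 and 0.410 CPM in KO + NM1, with every KO piece higher than every KO + NM1 piece and a log2 fold change of 1.24 ± 0.45 (edgeR quasi-likelihood, adjusted p = 0.053), while the tested HoxA coding genes that were called were lower. Mir10a had 1, 1 and 2 counts in KO and 3, 2, 4 and 1 in KO + NM1, and Mir10b had 0 in all libraries.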
